A study of Caenorhabditis elegans with 2 samples.

Results

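The vitellogenin genes vit-2, vit-3, vit-4, vit-5 and vit-6 encode the yolk proteins of Caenorhabditis elegans. The peaks over them are described here from a chromatin immunoprecipitation and sequencing (ChIP-seq) experiment on the nucleolar protein DAO-5. The members were taken by name and numbered 5 of 19971 nuclear protein-coding genes in the RefSeq annotation. A peak was counted for a gene when it overlapped, by at least 1 bp, the gene or the 1000 bp upstream of it, and this stretch is called the window. The samples were whole hermaphrodites of strain OP252 at the L4 or young adult stage, of unknown age, which stably carry DAO-5 with GFP and FLAG fused to its C terminus. Chromatin was sonicated and precipitated with an antibody to GFP, and the study held 1 group of 2 biological replicates with no second genotype or treatment. An untagged strain was not analysed here.

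The deposited values are peak lists in the ce11 build, 1 for each replicate, 1 from the pooled reads and 1 thresholded on the irreproducible discovery rate. Replicate 1 had 23091 peaks, replicate 2 had 21273 and the pooled list had 16687, while the thresholded list had 532 nuclear peaks. Every thresholded peak was among the strongest of the pooled list, and the weakest had a pooled signal of 51.8. The signal of a peak is the authors' value, with no unit given, and serves here to describe and rank peaks within a list, where rank 1 is the strongest. Ranks count the mitochondrial peaks of a list too. The median signal was 21.3 among pooled peaks, 11.5 among replicate 1 peaks and 11.0 among replicate 2 peaks, so a signal is not compared between lists. Read depth is unknown, so each replicate's value is given in place of an error, and no interval for a single peak could be formed.

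Vitellogenins are large lipid-binding proteins that the intestine of the hermaphrodite makes from the transition to adulthood onward. They are secreted into the body cavity and taken up by growing oocytes through the receptor RME-2. The genes vit-2, vit-3, vit-4 and vit-5 encode the larger yolk polypeptides, and vit-6 encodes a precursor that is cleaved into the smaller ones. In adults these are among the most strongly transcribed genes of the intestine. DAO-5 is the counterpart in C. elegans of Nopp140, a nucleolar phosphoprotein that associates with small nucleolar RNPs and with RNA polymerase I. In chromatin of whole animals, a signal from the intestine and a signal from other tissues cannot be told apart.

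Promoters of the vitellogenin genes carry short elements that were first described in these genes, named VPE1 (TGTCAAT) and VPE2 (CTGATAA). VPE2 contains the core of a GATA site (TGATAA), so a VPE2 match is always also a core match. The 150 bases upstream of each annotated start are shown because the strongest peak of vit-2 reaches into this stretch and the peaks of vit-6 do not. They are RefSeq sequence of assembly WBcel235 (ce11), read in the direction of the gene, and capitals mark VPE1 and the GATA core on either strand.
vit-6, chrIV:8261007-8261156, plus strand: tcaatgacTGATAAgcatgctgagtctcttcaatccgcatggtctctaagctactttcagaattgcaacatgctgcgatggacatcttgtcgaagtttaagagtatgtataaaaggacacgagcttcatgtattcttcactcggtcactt
vit-2, chrX:5100882-5101031, plus strand: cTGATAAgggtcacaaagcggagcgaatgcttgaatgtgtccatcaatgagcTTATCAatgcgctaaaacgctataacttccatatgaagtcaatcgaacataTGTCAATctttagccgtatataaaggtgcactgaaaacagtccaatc
vit-5, chrX:3403321-3403470, plus strand: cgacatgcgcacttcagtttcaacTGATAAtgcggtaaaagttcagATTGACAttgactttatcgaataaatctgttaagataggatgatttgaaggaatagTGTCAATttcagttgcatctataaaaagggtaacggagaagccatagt
vit-3, chrX:3572550-3572699, minus strand: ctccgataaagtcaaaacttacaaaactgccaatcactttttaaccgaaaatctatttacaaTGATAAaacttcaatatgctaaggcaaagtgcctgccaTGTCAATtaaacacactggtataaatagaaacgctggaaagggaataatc
vit-4, chrX:3563966-3564115, minus strand: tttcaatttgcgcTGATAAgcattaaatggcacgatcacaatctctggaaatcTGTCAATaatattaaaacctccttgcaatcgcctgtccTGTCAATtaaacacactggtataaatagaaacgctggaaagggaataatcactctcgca

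Searched over 250 bases upstream and on both strands, VPE1 was present in 5 of 5 members, against 963 of 19971 protein-coding genes (4.82%). The elements were first described in these genes, so their presence there is no new result. The VPE1 match of vit-6 did not lie wholly within the 150 bases shown. VPE2 was present in 4 of 5, against 7.27% of genes, and the core TGATAA in 5 of 5, against 26.8%. The member without VPE2 was vit-3, which had the core alone. These matches describe letters in a window and not occupancy by a factor. At the 532 nuclear thresholded peaks, the 101 bases at the summit held VPE1 in 1.13% and TGATAA in 6.39% of cases. None of the 3 summits over members held either element.

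Thresholded peaks lay at 2 of the 5 members, vit-6 and vit-2. The share of all nuclear protein-coding genes with such a peak was 2.63%, among genes on X, where all members but vit-6 lie, it was 3.63%, and among the 4486 genes with a window of over 4000 and at most 8000 bp it was 3.34%. The windows of the members measured 6133 to 6303 bp. The gene vit-6, on chromosome IV, had 2 of these peaks, the exact number that 26 genes in all had and 8 of the 4486 genes of like window length. The 101 bases at each summit are shown because all 3 lie inside coding exons, with the base at the summit in capitals.
vit-6, chrIV:8261477-8261577, plus strand: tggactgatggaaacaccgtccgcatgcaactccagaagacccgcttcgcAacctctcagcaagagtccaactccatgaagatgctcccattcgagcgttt
vit-6, chrIV:8263191-8263291, plus strand: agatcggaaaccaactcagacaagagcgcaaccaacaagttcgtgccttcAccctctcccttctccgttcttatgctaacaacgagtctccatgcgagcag
vit-2, chrX:5101141-5101241, plus strand: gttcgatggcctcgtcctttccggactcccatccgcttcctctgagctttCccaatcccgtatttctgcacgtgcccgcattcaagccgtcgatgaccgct

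The stronger peak of vit-6 spanned 8261312 to 8261741 and had its summit 370 bp inside the gene. Its signal was 65.6 in the pooled list (rank 274), 30.7 in replicate 1 (rank 450) and 37.4 in replicate 2 (rank 216). The summits of the replicate peaks fell on the same base, 2 bp from the pooled one. The other thresholded peak of vit-6 had its summit 2084 bp inside the gene, with signals of 51.9 in the pooled list (rank 544), 28.9 in replicate 1 (rank 550) and 22.0 in replicate 2 (rank 1098). Its replicate summits were 6 bp apart. Both positions recurred in each replicate, and the signals ranked differently. The thresholded list was derived by irreproducible discovery rate, which favours peaks found in both replicates, so this recurrence is no separate evidence.

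The peak of vit-2, on X, spanned 5100976 to 5101405, from 56 bp upstream of the annotated start to 373 bp inside the gene, with its summit at 159 bp. Its signal was 52.1 in the pooled list (rank 539), 28.7 in replicate 1 (rank 560) and 26.5 in replicate 2 (rank 602), and the replicate summits were 33 bp apart. Both this peak and the second of vit-6 lay at the weak end of the thresholded list. A further vit-6 peak, with its summit 1529 bp inside the gene, had a pooled signal of 50.7 (rank 585) and fell just outside.

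**Figure D1:**
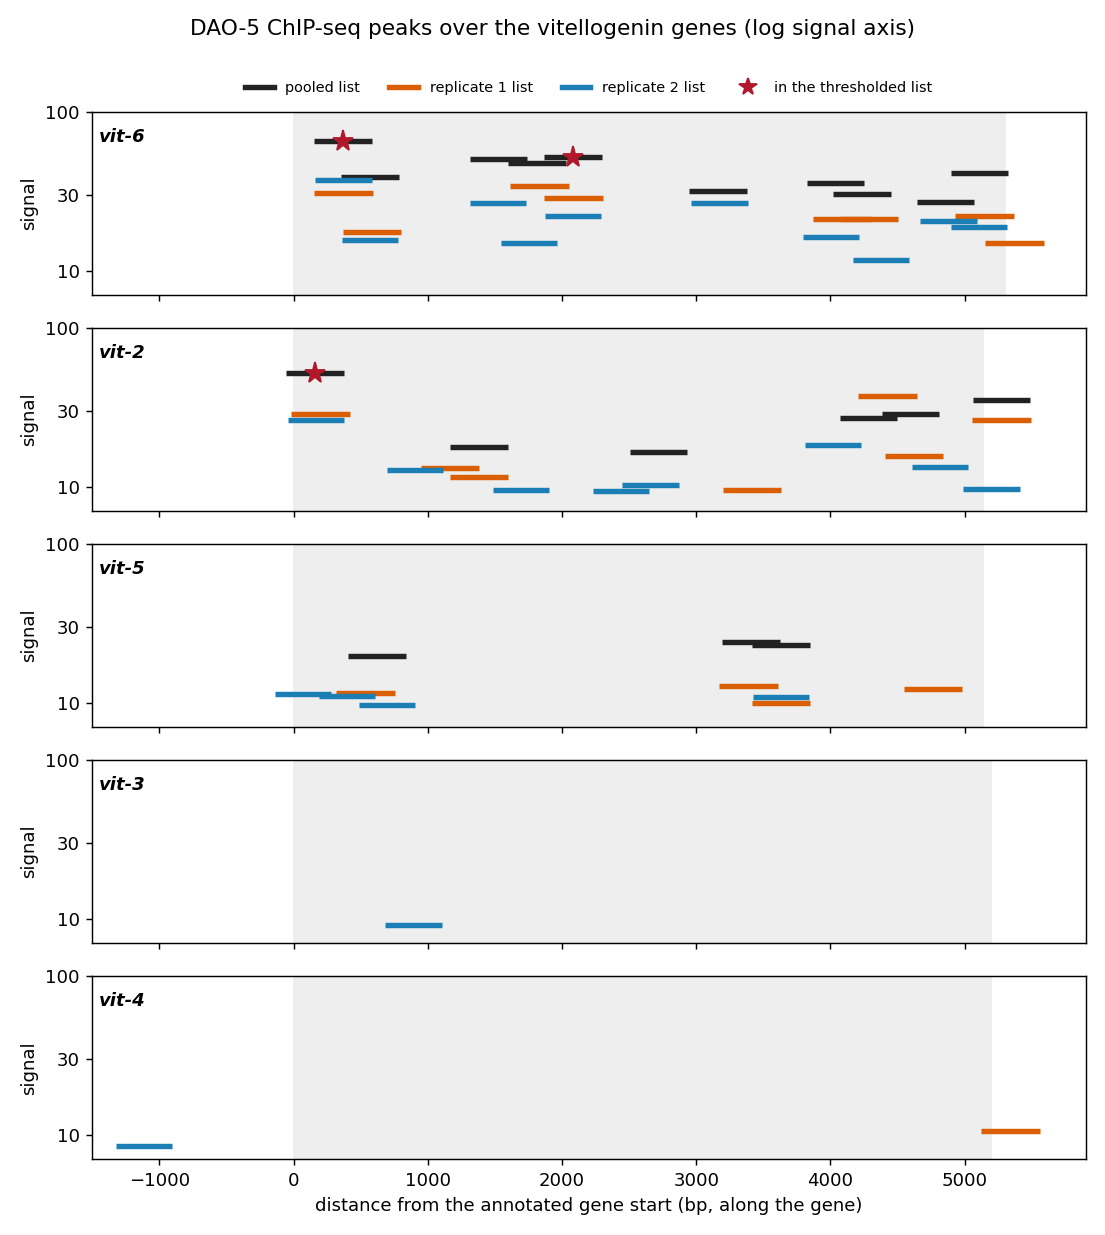
Peaks over each vitellogenin gene, with distance from the annotated start in bp on the horizontal axis and the deposited signal on a log axis. Bars span peaks of the pooled (black), replicate 1 (orange) and replicate 2 (blue) lists, stars mark summits in the thresholded list, and the gene is shaded: vit-6 held 10 pooled peaks, vit-2 held 6, vit-5 held 3, and vit-3 and vit-4 held 0.

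Over vit-6 the peaks formed a series along the whole gene. The pooled list held 10 peaks over it, replicate 1 held 8 and replicate 2 held 10. The pooled peaks overlapped each other in part, forming 5 blocks that covered 3332 of 5303 bp (62.8%). Cover was 44.2% in replicate 1 and 64.9% in replicate 2. Genes of like window length had a median cover of 1.56% by pooled peaks, against 8.56 and 7.52% by peaks of replicates 1 and 2. In the pooled list 2 of the 4486 genes, vit-6 included, had at least this cover, in replicate 1 there were 40, and in replicate 2 vit-6 alone.

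Peaks were also numerous over vit-6. A median of 1 pooled peak lay over genes of like window length and the highest number was 11, at pde-2, a phosphodiesterase gene that was named after its value was seen. The 10 of vit-6 came next. Longer genes can hold more peaks, so this ranking holds within the 4486 genes only. Over the whole nuclear genome there were 0.166 pooled peaks per kb, and over the window of vit-6 there were 1.59.

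Signals within vit-6 were highest in the 5′ part of the gene. Pooled signals were 65.6 and 38.7 at 370 and 569 bp, then 50.7, 48.0 and 51.9 at 1529, 1815 and 2084 bp. Further along they were 32.0 at 3163 bp, 35.6 and 30.3 at 4038 and 4237 bp, and 27 and 41.3 at 4859 and 5111 bp. No pooled peak lay in the 1000 bp upstream of vit-6. The replicates did not share all of this series. At 3163 bp replicate 2 had a signal of 26.7 (rank 584) and no replicate 1 peak overlapped. At 1815 bp replicate 1 had 34.2 (rank 330), its strongest over the gene, against 15 (rank 4000) in replicate 2. The pooled peak at 1529 bp was overlapped in replicate 1 by that peak of signal 34.2 alone, with summits 305 bp apart. In replicate 2 a peak with a signal of 26.7 (rank 586) had its summit 5 bp from the pooled one at 1529 bp. In all, 8 of 8 replicate 1 peaks over vit-6 were overlapped by a replicate 2 peak and 9 of 10 the other way. An overlap of 1 bp sufficed and the lists cover 44.2 and 64.9% of the gene, so these counts measure agreement poorly.

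Over vit-2 peaks lay along the gene, with the higher signals toward its ends. The pooled list held 6, replicate 1 held 7 and replicate 2 held 8, covering 40.0, 43.3 and 54.7% of the gene. Pooled signals in the interior were 17.7 at 1381 bp and 16.5 at 2721 bp, both near the floor of that list. The interior peaks of the replicates were weak as well, with signals of 13.1, 11.5 and 9.52 at 1165, 1381 and 3414 bp in replicate 1. In replicate 2 they were 12.8, 9.58, 9.40 and 10.2 at 907, 1695, 2442 and 2660 bp. Toward the 3′ end pooled signals were 26.9 at 4284 bp and 28.8 at 4596 bp. The last peak had a signal of 35.0 with its summit 137 bp past the annotated end, and it overlapped the neighbouring gene C42D8.9, so its gene is uncertain.

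The replicates differed over the 3′ end of vit-2. The strongest replicate 1 peak of the gene lay there, at 4424 bp, with a signal of 37.4 (rank 250). The replicate 2 peaks that overlapped it did so by 25 and 38 bp, with summits at 4021 and 4814 bp and signals of 18.2 (rank 2069) and 13.3 (rank 5857). At the peak past the gene end the signal was 26.5 (rank 732) in replicate 1 and 9.60 (rank 14847) in replicate 2. Only the 5′ peak of vit-2 therefore had a rank under 1000 in each replicate list. Of the peaks over vit-2, 6 of 7 in replicate 1 and 6 of 8 in replicate 2 overlapped one from the other replicate. With cover of 43.3 and 54.7% and 1 bp of overlap enough, these counts also measure agreement poorly.

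**Figure D2:**
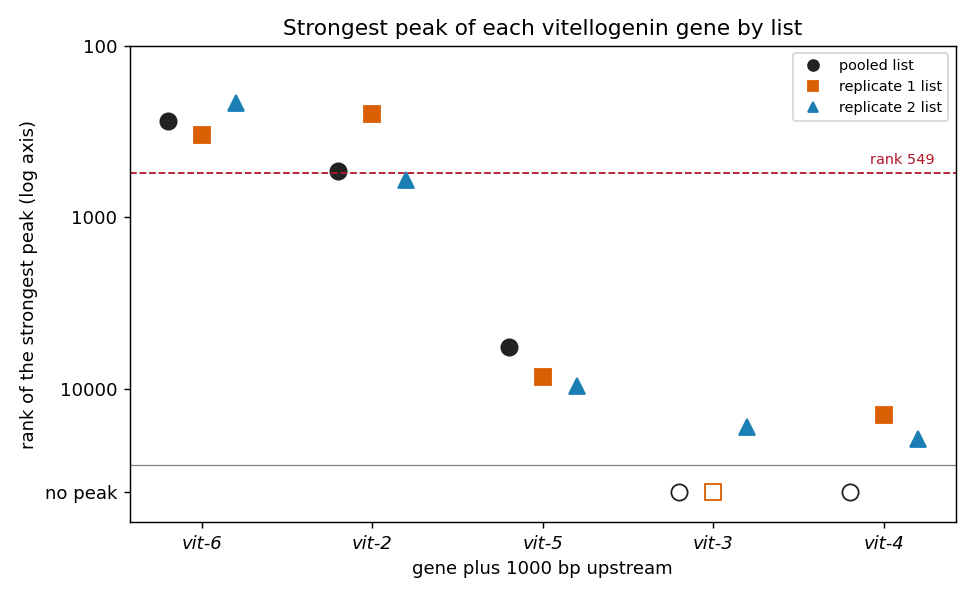
Rank of the strongest peak over each vitellogenin gene and its 1000 bp upstream, on a log axis with the strongest at the top, in the pooled, replicate 1 and replicate 2 lists; open symbols mark lists with no peak. The dashed line is the number of peaks in the thresholded list: vit-6 is above it in all 3 lists, vit-2 in the pooled and replicate 1 lists, and the others in none. The replicate 1 point of vit-2 is a peak toward the 3′ end. The thresholded 5′ peak of vit-2 ranked 560 in replicate 1 and 602 in replicate 2, below the line in both.

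The other members, all on X, had weak peaks or none. Over vit-5 the pooled list held 3 peaks, with signals of 19.8, 24.2 and 23.1 at 622, 3407 and 3630 bp, and the best of them ranked 5666. Replicate 1 held 4 peaks with signals of 10.0 to 12.8 and replicate 2 held 4 with 9.60 to 11.3, all close to the list medians. At 3630 bp the replicate summits were 2 bp apart, with ranks of 16192 in replicate 1 and 10691 in replicate 2. Cover of vit-5 was 21.1% in the pooled list, where 9.07% of genes of like window length had at least as much.

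The genes vit-3 and vit-4 lie side by side on the minus strand and had no pooled peak. In replicate 1 vit-3 had none, and in replicate 2 it had 1 peak, in an intron, with a signal of 9.13 (rank 16701). In vit-4 a replicate 1 peak with a signal of 10.6 (rank 14174) covered the last 72 bp of the gene. A replicate 2 peak with a signal of 8.47 (rank 19615) reached into its upstream stretch, and these did not overlap each other. The stretch free of pooled peaks ran from 3558202 to 3566540 over vit-4, 8339 bp, and from 3567224 to 3585900 over vit-3, 18677 bp. Gaps at least that long made up 23.2% and 7.55% of the 14971 gaps between nuclear pooled peaks, whose median length was 2878 bp. Each of these gaps holds a whole gene, of 5197 bp in vit-4 and 5195 bp in vit-3, and so had to be longer than that. Long gaps also hold more genes, so these shares do not measure how unusual the stretches are.

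Between these genes, peaks began 131 bp past the 3′ end of vit-3. The pooled list had signals of 26.4 (rank 4236) and 24.5 (rank 5420) there, replicate 1 had 16.8 (rank 3599) and replicate 2 had 16.3 (rank 2993). The strongest signal near either gene was thus outside the windows used.

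Counted over all lists, 3 of the 5 members had a pooled peak, 4 a replicate 1 peak and 5 a replicate 2 peak. Weak peaks are common in these lists, and the same was true of 47.5, 58.0 and 56.3% of all nuclear protein-coding genes, and of 59.1, 71.2 and 69.8% of genes of like window length. Among genes on X the pooled share was 47.3%. A peak in each replicate list was present at 4 members, against 41.9% of all genes and 55.6% of those of like length. Replicate peaks that overlapped each other were present at 3 members, vit-2, vit-5 and vit-6, against 30.4% and 38.2%. With 5 genes, these counts lie near the background.

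**Figure D3:**
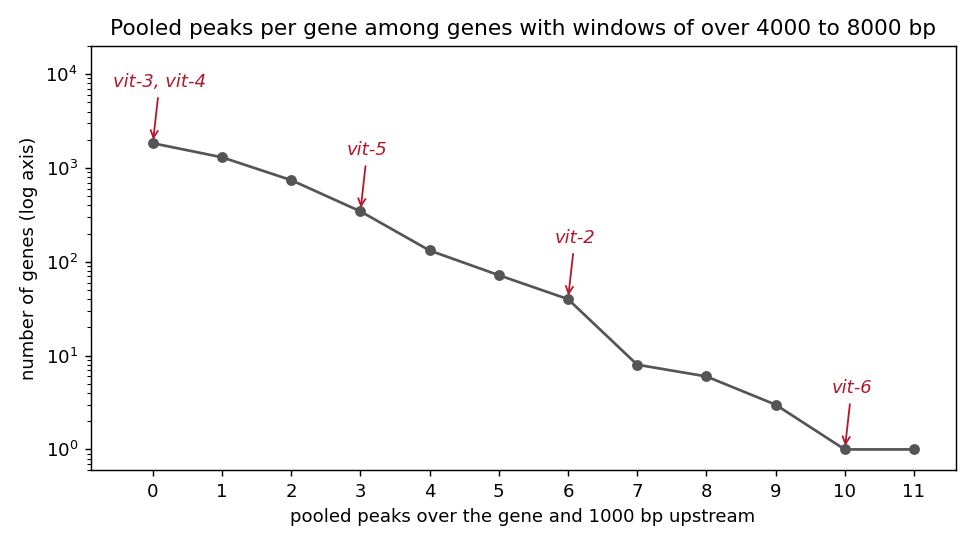
Number of pooled peaks over the gene and its 1000 bp upstream (horizontal axis) for the 4486 protein-coding genes with windows of over 4000 to 8000 bp, with the number of genes on a log axis. Arrows mark the members: vit-6 with 10 peaks lies 1 below the highest, vit-2 with 6 is among 59 genes with at least that many, and vit-3 and vit-4 are at 0.

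Members also differ in how far their sequence is unique. Coding sequences of vit-3 and vit-4 were 99.0% identical, differing at 48 of 4812 aligned bases. The identity of vit-5 was 97.7% with vit-3 and 97.8% with vit-4. With these, vit-2 shared 67.8 to 67.9% and vit-6 52.7 to 53.1%. The closest relative of vit-2 was vit-1, at 93.8%. The opening 60 coding bases of the X-linked trio are shown because they are the same in vit-3 and vit-4, and capitals mark bases that differ from vit-3.
vit-3, chrX:3572481-3572540, minus strand: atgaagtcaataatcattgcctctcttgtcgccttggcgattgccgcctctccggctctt
vit-4, chrX:3563906-3563965, minus strand: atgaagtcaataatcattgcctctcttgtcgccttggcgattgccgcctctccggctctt
vit-5, chrX:3403481-3403540, plus strand: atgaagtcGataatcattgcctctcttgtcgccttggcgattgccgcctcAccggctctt

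Of all stretches of 30 bases in vit-6, 0% occurred again elsewhere in the nuclear or mitochondrial genome. The share was 24.9% in vit-2, 62.2% in vit-5, 80.9% in vit-3 and 84.2% in vit-4. With 50 bases the shares were 0, 13.1, 49.1, 74.1 and 78.6% in that order of genes. Pooled peaks numbered 10, 6, 3, 0 and 0 in the same order, so among members the number fell or stayed level as the repeated share rose. This order did not extend to vit-1, where 24.2% of 30-base stretches were repeated and no pooled peak lay in the window. Coding sequences of vit-3, vit-4 and vit-5 are nearly the same, so these genes are not separate cases. In vit-6, vit-2, vit-5, vit-3 and vit-4, 100, 96.4, 72.4, 39.3 and 32.5% of bases lay in an unrepeated stretch of 50. A link between repeated sequence and peak number was not tested.

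In vit-2, vit-5 and vit-3 the share of repeated stretches was lower under peaks than in the whole gene. Under the pooled peaks of vit-2, 10.4% of 30-base stretches were repeated, against 24.9% of the gene, and in vit-5 it was 52.1% against 62.2%. Most stretches under the pooled peaks of vit-5 were thus still repeated. Under the 1 replicate 2 peak of vit-3, a weak one (signal 9.13, rank 16701), it was 30.7% against 80.9%. How the authors' processing treated reads that match several places is not given in the sources used here, and the part of repeated sequence in these differences was not tested. For vit-3, vit-4 and vit-5 a missing or weak peak was therefore not read as a lack of DAO-5 signal. At vit-6 all stretches of 30 or of 50 bases were unique.

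**Figure D4:**
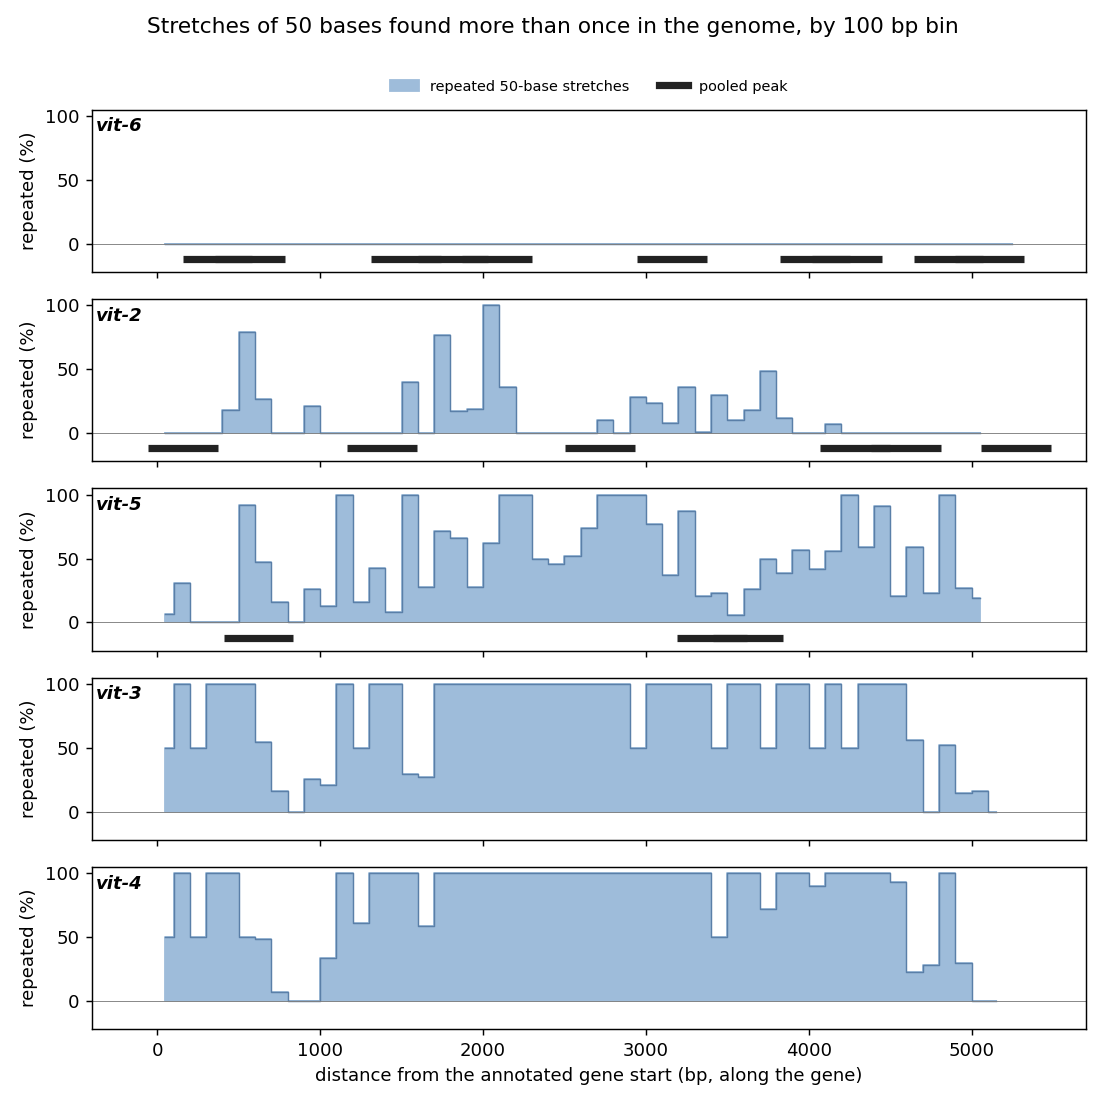
Share of 50-base stretches that occur more than once in the genome, in bins of 100 bp along each vitellogenin gene (blue), with pooled peaks as black bars below. The share is 0 along vit-6, averages 13.1% in vit-2 and 49.1% in vit-5, and reaches 74.1% in vit-3 and 78.6% in vit-4, where no pooled peak lies.

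Peaks of members lay in coding sequence. Of the 19 pooled summits, 18 were in coding exons and 1 was past a gene end, and of the 3 thresholded summits all were in coding exons. In replicate 1 it was 17 of 20 and in replicate 2 20 of 24, with 2 in introns. Coding sequence makes up 92.6 to 94.2% of these genes, so most positions in them are coding. Across the thresholded list, 32 of 532 nuclear summits (6.02%) lay in coding sequence, and the 3 of the members are among these 32. In the pooled list the share was 30.8%, and coding sequence is 26.6% of the nuclear genome.

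Of the 532 nuclear thresholded summits, 265 (49.8%) lay within 1000 bp of a small RNA gene, and none of the 3 member summits did. A distance of over 5000 bp was found for 43.8% of them. The nearest tRNA, snoRNA, snRNA, rRNA or miRNA gene was 8362 bp from the stronger vit-6 summit (the snoRNA gene H09I01.2) and 15496 bp from the thresholded vit-2 summit (the tRNA gene C42D8.t1). For vit-5 it was 5126 bp from the strongest pooled summit (mir-271). The B box core GTTCGA, a tRNA promoter element, was present at the start of the vit-2 summit window shown above and at neither vit-6 summit, against 17.5% of nuclear thresholded summits. The repeat GAGAGA was at none of the 3, against 18.0%.

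Base composition of the thresholded member summits was above the median of the list. G and C made up 58.4% of the 101 bases at the vit-2 summit and 53.5 and 51.5% at those of vit-6, against a median of 50.5% and quartiles of 44.6 and 55.4% for nuclear thresholded summits. Over the whole genes it was 48.6% in vit-2 and 47.9% in vit-6, and 45.0 to 45.6% in vit-3, vit-4 and vit-5. Pooled summits over members ranged from 44.6 to 62.4% with a median of 49.5%, against 41.6% for all nuclear pooled summits.

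Genes of yolk assembly, uptake and regulation were described alongside from a list of 25. A thresholded peak lay at 4 of these 25 genes, where 2 of the 5 members and 2.63% of all nuclear protein-coding genes had one. These were ceh-60, a homeobox factor that promotes vitellogenin transcription (pooled signal 63.3, rank 306), and lin-29, a zinc-finger factor of the larval-to-adult switch (60.3, rank 351). The others were rab-11.1 (59.7, rank 358) and rab-10 (52.6, rank 524), small GTPases of recycling endosomes. Replicate ranks were 379 and 557 for ceh-60, 929 and 290 for lin-29, 318 and 1207 for rab-11.1, and 954 and 470 for rab-10, in replicates 1 and 2. The window of lin-29 spans 18698 bp, and long windows meet peaks more often. In the pooled list 3 of the 5 members had a peak, against 23 of the 25 and 47.5% of all genes. The difference was not tested, since the genes were chosen by name and differ in length.

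Other genes of the intestine had thresholded peaks in 1 of 20 cases (5.00%), against 2.63% of all nuclear protein-coding genes. It lay at act-5, the actin of the intestinal brush border (pooled signal 59.5, rank 365). Pooled peaks lay at 14 of the 20, against 47.5% of all genes. The next strongest were cpr-6, a cathepsin B-like protease gene (45.8, rank 757), and fat-5, a fatty acid desaturase gene (38.0, rank 1324). Their ranks were 393 and 492 for act-5, 2854 and 355 for cpr-6, and 6909 and 1038 for fat-5, in replicates 1 and 2. None of these 20 genes reached the rank of vit-6 in the pooled list, whereas 10 of 75 cytosolic ribosomal protein genes ranked above it. The intestine genes have shorter windows, with a median of 2804 bp against 6195 bp for the members. Thresholded peaks lay at 2 of 5 actin genes, act-2 and act-5, the latter also in the intestine list. They lay at 14 of the 75 ribosomal protein genes (18.7%), which are short, with a median window of 1754 bp.

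The protein-coding genes most like vit-6 in the ranks of their strongest replicate peaks were col-181, miz-1, M04B2.7, col-128 and hal-3. Likeness was the sum over both replicates of the absolute difference in log10 rank, among 8373 genes with a peak in each list. The cuticle collagen gene col-181 was nearest, at 0.014, with ranks of 327 and 211 against 330 and 216 for vit-6. The value was 0.071 for miz-1, 0.081 for M04B2.7 and for the collagen gene col-128, whose strongest peaks have the same ranks, and 0.090 for hal-3. Pooled peaks numbered 10 over vit-6, 10 over miz-1, whose gene is longer, and 1 to 3 over the other 4. Longer genes can hold more peaks and these genes were not matched for length, so a relation of rank to peak number was not tested.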

How the data were processed

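DAO-5-GFP chromatin of whole worms was measured in 2 biological replicates, named by the number in the labels. Per the notes deposited with the lists, peaks were listed per replicate and for pooled reads against a control, and the optimal list of 549 peaks was derived from these by irreproducible discovery rate. The aligner, peak caller, threshold and handling of reads with several matches are not given in the sources used here. Both the deposited signal (column 7) and −log10 q (column 9, constant in the thresholded list) are the authors' values. Depth is unknown.

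Coordinates are ce11 and 1-based. Chromosome lengths of the RefSeq WBcel235 assembly exceed every peak end, and genes, sequences and coding parts came from it. The ce10 lists were not analysed. Peaks overlapping a gene or its 1000 bp upstream by at least 1 bp were counted. With 1 group there was no contrast to test, so counts stand beside the share of all genes. Coding sequences were aligned with MAFFT 7.526. Window counting was tested on planted peaks. Python 3.11.15, numpy 2.4.6, pandas 2.3.3 and matplotlib 3.10.9 were used. Named genes are the members, vit-1, genes that a member's thresholded or strongest pooled peak overlaps or lies nearest to, genes of the yolk and intestine lists with a thresholded peak or among the 3 strongest pooled, and the 5 genes most like vit-6. Outside this rule, pde-2, act-2, C42D8.9, spp-14 and K09F5.9 were named after their values were seen. Members and lists were chosen with earlier results of these data known.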

Additional observations from a re-analysis of the deposited data

How the results depend on the processing

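The 6 counts of members with a peak were recomputed with other windows, stricter lists and single replicates, and 38 of 47 recomputed counts stayed within 1.5 times. Thresholded peaks lay at 2 members, and at 1, vit-6, in the strongest 50% of that list. Without one replicate or the other, among as many of the strongest peaks of the remaining one, the count was 1 to 2, and without replicate 1 it was vit-6 alone. With 1000 bp downstream added, a choice made after seeing the data, pooled peaks lay at 5 members against 3, and overlapping replicate peaks at 5 against 3. In that wider window the share of all genes was 54.0% for pooled and 35.8% for overlapping replicate peaks. Among as many of the strongest peaks as the thresholded list holds, there were 2 members in place of 4 in replicate 1, 1 in place of 5 in replicate 2, 1 in place of 4 in both lists and 1 in place of 3 with overlapping peaks. The strongest 50% of replicate 2 gave 3 in place of 5. Of 15 recomputed ranks of the strongest pooled peak 10 moved by less than the SD between the replicate ranks. The others were ranks by −log10 q, where 625 pooled peaks share the highest value, for vit-2 and vit-6, the replicate ranks of vit-5 (8533 and 9679, against 5666), which come from longer lists and are 37.0 and 45.5% of the way down them against 34%, and that of vit-2 without replicate 2 (250, against 539). The SD is taken over the same 2 replicate ranks that stand for the ranks without 1 replicate, so it is no separate yardstick for those. For vit-2 these ranks belong to different peaks, with summits at 4424 bp in replicate 1 and 169 bp in replicate 2. No rank could be given for vit-3 and vit-4. No paired analysis was possible because there is 1 group. Unknown depth limits every statement on a missing peak.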

Other observations

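The sixth annotated vitellogenin gene, vit-1 on X, had no pooled or thresholded peak over the gene or its 1000 bp upstream. Replicate 1 had 2 peaks there and replicate 2 had 1, with best ranks of 13873 and 5795, and they did not overlap each other. A thresholded peak (chrX:7725665-7726094, signal 54.1, rank 482) had its summit 2009 bp upstream of the vit-1 start and 99 bp from the start of spp-14, and it overlapped spp-14 and K09F5.9. Past the 3′ end of vit-1, a peak began 347 bp away in the pooled list (signal 28.6, rank 3258), 339 bp away in replicate 1 (14.5, rank 5875) and 341 bp away in replicate 2 (12.3, rank 7686).

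Peaks within 1000 bp past the 3′ end were also present at the 5 other vitellogenin genes in 1 or more lists, against 35.9% of all nuclear protein-coding genes and 38.0% of those with windows of over 4000 to 8000 bp. At vit-5 there was 1 in each replicate list, with signals of 18.5 (rank 2610) in replicate 1 and 14.5 (rank 4472) in replicate 2, above every peak over the gene in the same list, and none in the pooled list. At vit-6 there was 1 in the pooled list (20.2, rank 9724) and 1 in replicate 2 (16.8, rank 2686). At vit-4 the pooled list had 1 (18.8, rank 11789), and the strongest in replicate 2 had a signal of 15.3 (rank 3732). These positions were looked at after the peaks had been seen, and no test was made.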
